A study of Mus musculus with 11 samples.

Results

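Gene expression was measured for 34 genes of fatty acid uptake, storage and oxidation, among 55487 genes in the deposited tables, in the gastrocnemius muscle of 11 mice. The 34 genes were taken as a list of symbols, and each matched 1 Ensembl gene row. All 34 passed the filter on low counts, as did 10505 genes in all. They were arranged in 8 groups along the path of a fatty acid: uptake and carriage (4 genes), activation and thioesterases (3), malonyl-CoA control (2), the carnitine shuttle (4), beta-oxidation (12), electron transfer (3), an uncoupling protein (1) and the lipid droplet (5).

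The mice fell into 3 genotypes, each mouse giving 1 library: 4 Raptor mTOR double knock-out mice, 3 Raptor knock-out mice and 4 wildtype mice. Raptor (gene symbol Rptor) defines mTOR complex 1, and mTOR (Mtor) is the catalytic subunit found in both mTOR complexes. The knockouts carried floxed Raptor alleles (and, in the double knockout, floxed mTOR alleles too) with a Cre recombinase that tamoxifen activates, driven by the human skeletal actin promoter, so that fibres, and not the other cells of the muscle, lose the gene. Mice of all 3 genotypes were labelled as treated with tamoxifen from 3 months of age, given in chow for 7 weeks. Muscles were taken 7 months after the start. The labels did not say whether the wildtype mice carried Cre or a floxed allele. The series named 2 comparisons of interest, of the double knockout with wildtype and with the Raptor knockout, and the Raptor knockout was also set against wildtype.

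Muscle fibres take fatty acids released from circulating lipoproteins by lipoprotein lipase, carry them across the membrane and through the cytosol, and activate them to acyl-CoA. Acyl groups enter mitochondria as carnitine esters, a step that malonyl-CoA inhibits, and are shortened there by the repeated reactions of beta-oxidation, which pass electrons to the respiratory chain through electron transfer flavoprotein. Fatty acids that are not burned are stored as triglyceride in lipid droplets coated with perilipins and released again by lipases.

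In the double knockout, 11 of the 34 genes fell and 1 rose relative to wildtype. The genes that fell were Lpl, Slc27a1 and Fabp3 in uptake, Acot2 among the thioesterases, Cpt1b and Crat in the carnitine shuttle, Acadvl, Acadm, Acads and Acaa2 in beta-oxidation, and Etfdh in electron transfer. The 1 gene that rose was Mlycd, which encodes the enzyme that degrades malonyl-CoA. None of the 5 lipid droplet genes was called. In the Raptor knockout 2 genes, Lpl and Slc27a1, fell and Mlycd rose. A gene was called where edgeR's quasi-likelihood test gave a Benjamini-Hochberg adjusted p under 0.05 over all 10505 tested genes.

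These counts stand against a background of many changed genes. In the double knockout 13.7% of all tested genes fell and 13.0% rose relative to wildtype, while 32.4% of the 34 genes fell and 2.94% rose. The median log2 fold change of the 34 genes was -0.35, against 0.02 over all tested genes, and 25 of the 34 values were negative. In the Raptor knockout 9.43% of all tested genes fell and 8.73% rose relative to wildtype, while 5.88% of the 34 genes fell and 2.94% rose, with a median of -0.17 against 0.00 over all tested genes. The fall count in the Raptor knockout was thus no larger than the background share. Both comparisons use the same 4 wildtype libraries.

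**Figure D1:**
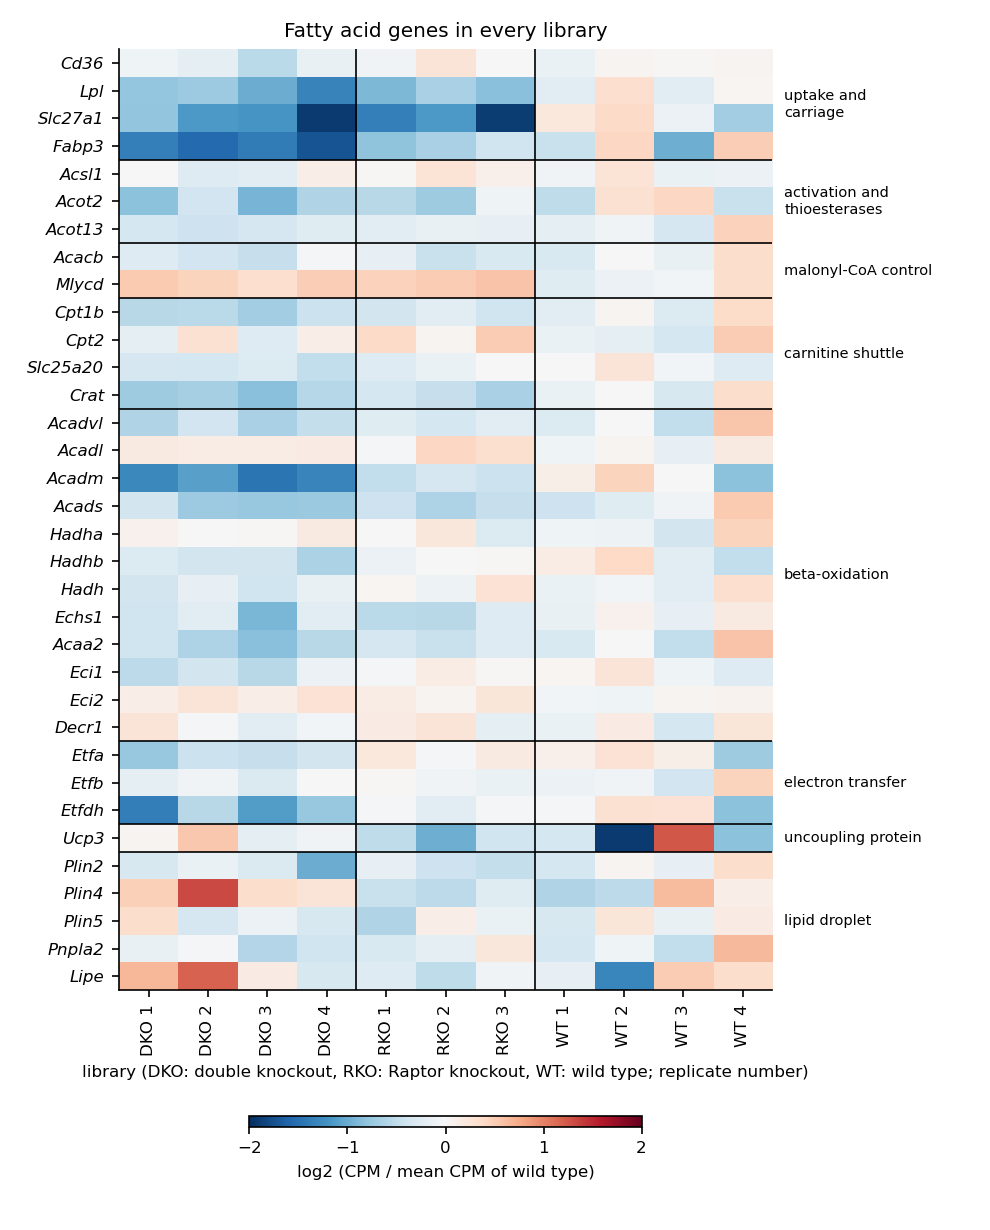
Heat map of the 34 genes (rows, ordered by step) in the 11 libraries (columns). Colour gives the log2 ratio of a library's TMM-scaled CPM to the wildtype mean, on a scale from -2 to 2. The double-knockout columns are blue for Lpl, Slc27a1, Fabp3 and Acadm, the Mlycd row is red in all 7 knockout libraries, and the wildtype column 4 differs from the other wildtype columns in many rows.

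The libraries held between 2791339 and 6328533 counts, and p-values measure the spread between these libraries. The 10 myofibre markers summed to 100200 to 124300 CPM in the double knockout and 99060 to 112800 CPM in the Raptor knockout, against 113000 to 135500 CPM in wildtype, and none was at 0. The Raptor-knockout sums lay wholly below those of wildtype. Single markers went both ways. Acta1, Actn2 and Myh1 were called higher in both knockouts, Tnnc2 and Myh4 lower in both, and Pgam2 lower in the double knockout. Rptor, the targeted gene of both knockouts, fell in both: it averaged 4.83 ± 0.57 CPM in the double knockout and 4.57 ± 0.63 CPM in the Raptor knockout, against 9.83 ± 0.95 CPM in wildtype (SD, n = 4, 3 and 4). Mtor, the other target in the double knockout, was higher there: it averaged 35.9 ± 3.4 CPM in the double knockout and 20.6 ± 2.2 CPM in the Raptor knockout, against 20.8 ± 5.95 CPM in wildtype (edgeR adjusted p = 0.00534 for the double knockout); reads from the end of a transcript do not show whether an inner exon was removed. The counts are of reads near the end of each transcript (QuantSeq 3' mRNA FWD), scaled by TMM to the effective library size (CPM).

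Some libraries stood apart. Double-knockout replicates 3 and 4 came from the smaller of 2 sequencing runs, and the other 9 libraries from the larger. Xist, which is expressed from the inactive X chromosome, was at 95.6 to 208 CPM in double-knockout replicates 1 to 3, at 117 CPM in wildtype replicate 3 and at 0.291 CPM or less in the other 7 libraries. Wildtype replicate 4 differed from the other wildtype libraries with the base composition of the transcript end, a description added after seeing the data. Its log2 ratio to the mean of wildtype replicates 1 to 3 correlated with the GC content of the last 500 transcript bases, with r = 0.57 over the 34 genes and 0.37 over 10497 tested genes (all points share this library). Among the 34 genes it was lowest for Acadm (log2 ratio -1.02, GC 36.4%), Etfdh (-1, GC 38.0%), Ucp3 (-1, GC 48.6%), Etfa (-0.88, GC 33.8%) and Slc27a1 (-0.80, GC 50.6%), of which Ucp3 and Slc27a1 are not low in GC, and highest for Pnpla2 (0.94, GC 51.8%) and Acaa2 (0.82, GC 51.4%). Its part in the results was not tested beyond the values without it. Raptor-knockout replicate 2 was far from its own group by chi-square over degrees of freedom, at 25 and 26 from replicates 1 and 3. From double-knockout replicates 1 to 4 it was at 16, 27.7, 9.11 and 11.3. Double-knockout replicate 2 was at 10.1 and 9.7 from Raptor-knockout replicates 1 and 3. Within its own group it was at 8.45, 18.5 and 16 from replicates 1, 3 and 4. Wildtype replicate 4 was at 45.4, 39.9 and 45.6 from wildtype replicates 1 to 3, which were at 8.84 to 18.9 from each other. From Raptor-knockout replicates 1 to 3 it was at 38.6, 55.2 and 37.7, and from the double-knockout libraries at 48.8 to 56.8. The libraries thus did not all group by genotype, in wildtype as in the knockouts.

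**Figure D2:**
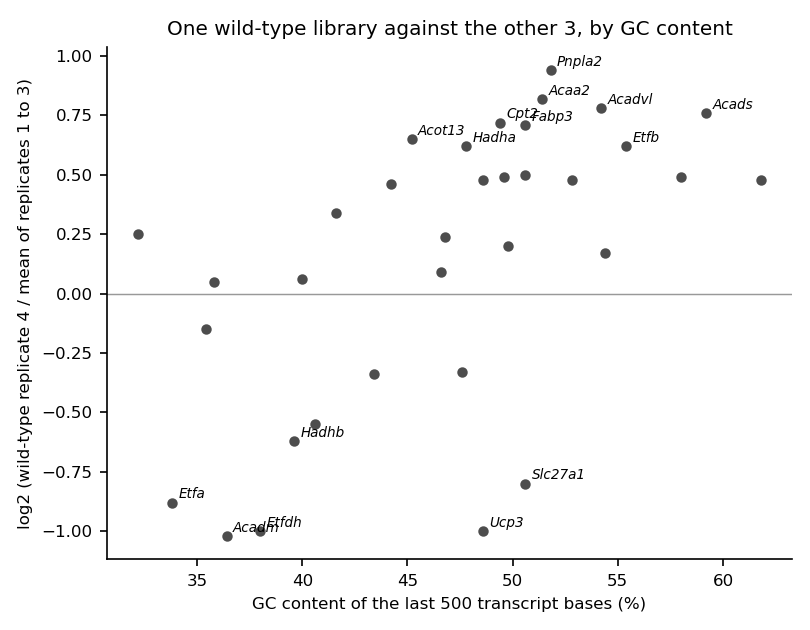
Wildtype replicate 4 against the other 3 wildtype libraries. Each point is 1 of the 34 genes, the x axis gives the GC content of the last 500 bases of its longest coding transcript in percent, and the y axis gives the log2 ratio of its CPM in replicate 4 to the mean of replicates 1 to 3. Acadm, Etfdh and Etfa lie at the low-GC end at log2 ratios from -1.02 to -0.88, Ucp3 and Slc27a1 are low at GC contents of 48.6% and 50.6%, and Pnpla2, Acaa2 and Acadvl lie at 0.94, 0.82 and 0.78.

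Of the 4 uptake genes 3 fell in the double knockout and 2 in the Raptor knockout. Lpl (ENSMUSG00000015568, GRCm38 chromosome 8, 68880491 to 68907448, plus strand) encodes lipoprotein lipase, which frees fatty acids from triglyceride-rich lipoproteins in the capillary. It had 336.9, 350.4, 291.3 and 227.8 CPM in the double knockout, against 492.2, 729.7, 495.6 and 592.4 CPM in wildtype. In the Raptor knockout it had 311.3, 369.5 and 323.2 CPM. All 7 knockout libraries lay below all 4 wildtype libraries. The log2 fold change was -0.94 ± 0.16 (SE) in the double knockout (edgeR adjusted p = 0.000361) and -0.79 ± 0.17 in the Raptor knockout (edgeR adjusted p = 0.00436), and -0.15 ± 0.17 between the double and the Raptor knockout (adjusted p = 0.837).

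Slc27a1 (ENSMUSG00000031808, chromosome 8, 71568882 to 71587302, plus strand) encodes the fatty acid transport protein FATP1 of the plasma membrane. It was among the least counted of the 34 genes, with 3.79, 2.96, 2.92 and 1.74 CPM in the double knockout and 2.56, 2.98 and 1.76 CPM in the Raptor knockout, against 7.59, 8.58, 6.09 and 4.06 CPM in wildtype. Here too the knockout and wildtype libraries did not overlap. Its log2 fold change was -1.18 ± 0.31 in the double knockout (edgeR adjusted p = 0.0101) and -1.39 ± 0.35 in the Raptor knockout (edgeR adjusted p = 0.0103). Without the 2 libraries of the smaller run the double-knockout value was -0.94 with an adjusted p of 0.105.

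Fabp3 (ENSMUSG00000028773, chromosome 4, 130308595 to 130315463, plus strand) encodes the heart-type fatty acid binding protein that carries fatty acids through the cytosol of muscle. It had 110.9, 97.5, 108.7 and 87.2 CPM in the double knockout, against 211.7, 384.4, 146.4 and 405.5 CPM in wildtype. The Raptor knockout had 165.1, 183.8 and 216.9 CPM. The 4 double-knockout libraries lay close together and below every other library, while the wildtype libraries spread widely. The fall in the double knockout was 2.83-fold (log2 fold change -1.50 ± 0.28, edgeR adjusted p = 0.00159). The Raptor knockout was at -0.60 ± 0.29 relative to wildtype (adjusted p = 0.181), and the double knockout at -0.90 ± 0.29 relative to the Raptor knockout (adjusted p = 0.309). Cd36, the fatty acid translocase of the membrane, averaged 56.3 ± 7.2 CPM in the double knockout and 69.7 ± 8.5 CPM in the Raptor knockout, against 66.3 ± 4.1 CPM in wildtype, and was not called in any comparison. In bulk muscle, fewer cells of a type and less RNA per cell cannot be told apart: of the 9 tested endothelial markers none was called in either comparison with wildtype, and the 10 markers summed to 152.3 to 191.2 CPM in the double knockout, 173.8 to 203.6 CPM in the Raptor knockout and 153.8 to 261.5 CPM in wildtype.

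A promoter window of Slc27a1 is shown because Slc27a1 fell in both knockouts and this window holds CACGTG, the E-box bound by basic helix-loop-helix factors. It is 1 of 3 RefSeq start sites of the gene, GRCm38.p6 chr8:71570344-71570593, plus strand, the 250 bases before the start. CACGTG was not found in the windows of the other start sites of Slc27a1. The window shown lies inside the gene as GENCODE M21 annotates it. Capitals mark CACGTG, whose first base lies 202 bases before the start.
Slc27a1: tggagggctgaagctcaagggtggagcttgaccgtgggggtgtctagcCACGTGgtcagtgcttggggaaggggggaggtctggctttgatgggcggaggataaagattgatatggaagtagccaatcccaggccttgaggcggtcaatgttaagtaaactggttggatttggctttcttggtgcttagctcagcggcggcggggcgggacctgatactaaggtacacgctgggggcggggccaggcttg
CACGTG, which reads the same on both strands, lay in the windows (250 bases before to 50 after a start) of 3 of the 28 genes that matched a window, Slc27a1, Plin2 and Lipe. That is 10.7% of them, against 8.09% of all 27025 genes with a window. An element of 2 half-sites AGGNCA in the same direction 1 base apart, the form bound by PPAR with RXR, was found in none of the 28 on either strand and in 0.451% of all genes. TNAAGGTCA, the form bound by estrogen-related receptors, was likewise in none of the 28 and in 1.43% of all genes. Lpl, Acot13, Cpt1b, Crat, Decr1 and Acaa2 had no window.

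Among the activation and thioesterase genes only Acot2 was called. Acsl1, the main long-chain acyl-CoA synthetase of muscle, averaged 124.8 ± 16.2 CPM in the double knockout and 145.2 ± 13.2 CPM in the Raptor knockout, against 131.6 ± 18.5 CPM in wildtype. Acot2, a mitochondrial thioesterase that splits long-chain acyl-CoA, had 12.01, 16.2, 11.1 and 13.9 CPM in the double knockout and 14.4, 13.0 and 19.96 CPM in the Raptor knockout, against 15.0, 26.1, 28.1 and 15.6 CPM in wildtype. The groups overlapped, and the log2 fold change of the double knockout was -0.67 ± 0.23 (edgeR adjusted p = 0.0449), a call lost under 13 of the 22 alternatives. Acot1, its near copy, shares 93.8% of 1337 aligned transcript positions with Acot2, though the last 500 bases of the pair align over only 18 positions; Acot1 had at most 2.15 CPM and did not pass the filter. Acot13, a thioesterase attached to mitochondria, had 163.2 to 183.7 CPM in the double knockout, and wildtype replicates 1 to 3 had 193.1, 206.7 and 173.0 CPM, with replicate 4 the highest of all; Acot13 was not called.

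Of the malonyl-CoA genes, 1 rose in both knockouts and 1 was not called. Mlycd (ENSMUSG00000074064, chromosome 8, 119394878 to 119411102, plus strand) encodes malonyl-CoA decarboxylase, which removes the inhibitor of fatty acid entry into mitochondria. It had 91.02, 86.2, 80.04 and 89.8 CPM in the double knockout and 87.4, 90.4 and 93.9 CPM in the Raptor knockout, against 53.6, 58.3, 61.4 and 80.9 CPM in wildtype. The Raptor knockout lay wholly above wildtype, and double-knockout replicate 3 lay just below wildtype replicate 4. Mlycd rose by 0.45 ± 0.14 on the log2 scale in the double knockout (edgeR adjusted p = 0.0248) and by 0.51 ± 0.15 in the Raptor knockout (edgeR adjusted p = 0.0252). Without wildtype replicate 4 the values were 0.59 and 0.65, and without the smaller run the double-knockout value was 0.48 with an adjusted p of 0.0858. Acacb, the mitochondrial acetyl-CoA carboxylase that makes malonyl-CoA, averaged 55.8 ± 7.4 CPM in the double knockout and 55.0 ± 5.5 CPM in the Raptor knockout, against 67.6 ± 13.6 CPM in wildtype, and was not called (log2 fold change -0.28 ± 0.16 and -0.30 ± 0.17).

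In the carnitine shuttle 2 of 4 genes fell in the double knockout. Cpt1b (chromosome 15, 89416405 to 89425863, minus strand), the muscle carnitine palmitoyltransferase of the outer membrane and the enzyme that malonyl-CoA inhibits, had 71.7, 72.2, 64.9 and 78.2 CPM in the double knockout and 81.8, 90.7 and 79.8 CPM in the Raptor knockout, against 89.5, 108.7, 87.5 and 135.0 CPM in wildtype. Every double-knockout library lay below every library of the other groups. The log2 fold change was -0.55 ± 0.15 relative to wildtype (edgeR adjusted p = 0.0111) and -0.23 ± 0.16 relative to the Raptor knockout (adjusted p = 0.703). The call relative to wildtype was lost under 7 of the 22 alternatives. Cpt1b lies wholly within an annotated read-through gene on the same strand, which was at 0 counts in every library.

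Crat (chromosome 2, 30400471 to 30415813, minus strand), the carnitine acetyltransferase that buffers mitochondrial acetyl-CoA, had 47.7, 49.02, 43.5 and 52.3 CPM in the double knockout and 60.8, 56.3 and 49.6 CPM in the Raptor knockout, against 71.3, 78.3, 62.3 and 99.6 CPM in wildtype. Both knockouts lay below wildtype without overlap. The double knockout was at -0.69 ± 0.15 (edgeR adjusted p = 0.00309) and the Raptor knockout at -0.49 ± 0.17 (adjusted p = 0.0524, not called) relative to wildtype. Slc25a20, the carnitine-acylcarnitine carrier of the inner membrane, had 34.0 to 39.8 CPM in the double knockout, 40.0 to 48.1 CPM in the Raptor knockout and 39.9 to 57.6 CPM in wildtype, and was not called (adjusted p = 0.077 against wildtype). Cpt2, the inner-membrane transferase, averaged 25.6 ± 4.7 CPM in the double knockout and 31.8 ± 5.0 CPM in the Raptor knockout, against 25.3 ± 7.3 CPM in wildtype.

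**Figure D3:**
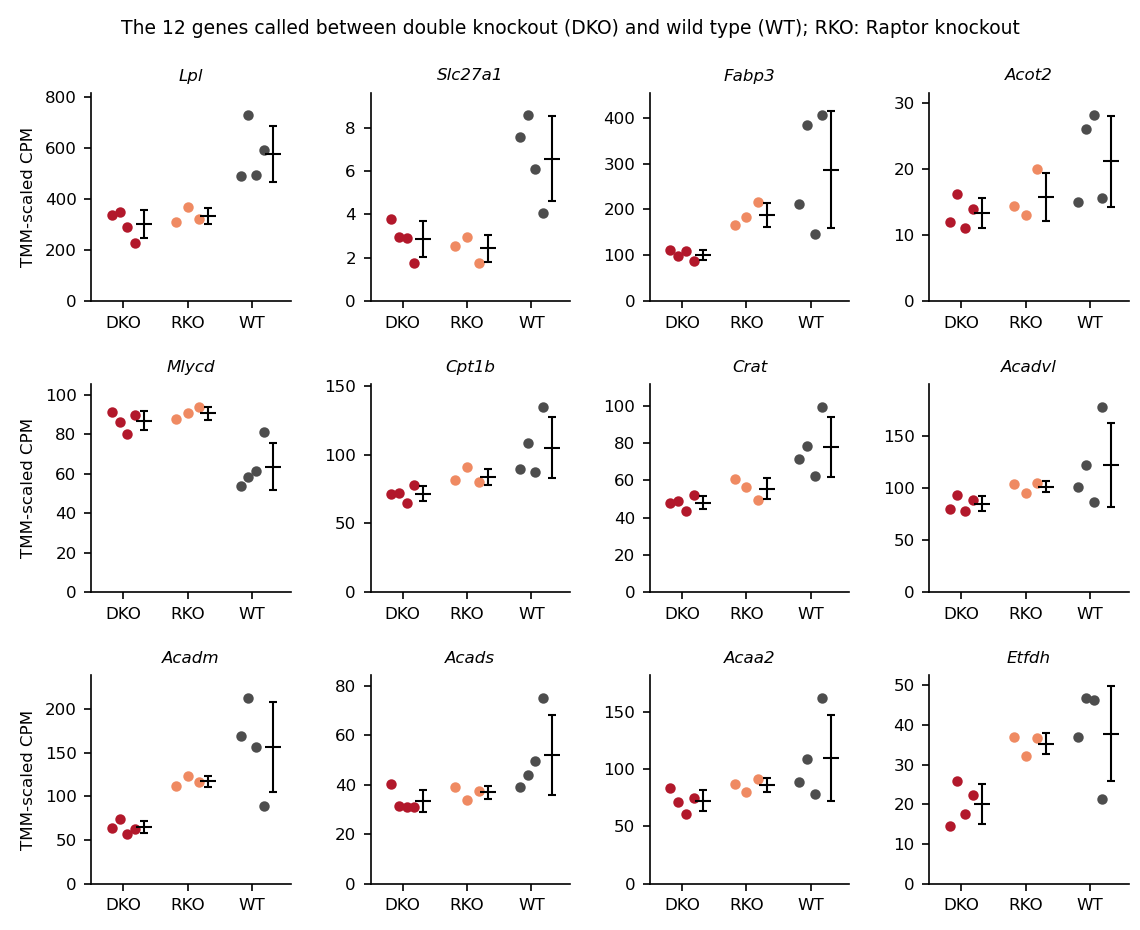
TMM-scaled CPM of the 12 genes called between the double knockout (DKO) and wildtype (WT), with the Raptor knockout (RKO) between them. Each point is 1 library, and the black marks give the mean and SD. Mlycd is the gene whose knockout points lie high, and for Acadm and Fabp3 the 4 double-knockout points lie below all points of the other groups.

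In beta-oxidation the acyl-CoA dehydrogenases, which take the first step and differ in the chain length they accept, did not move alike. Acadm (ENSMUSG00000062908, chromosome 3, 153922357 to 153944632, minus strand), the medium-chain enzyme, had 64.2, 74.1, 57.2 and 63.1 CPM in the double knockout, against 169.4, 213.1, 156.7 and 88.6 CPM in wildtype. In the Raptor knockout it had 111.8, 123.7 and 115.9 CPM. The double knockout lay below every other library, and wildtype replicate 4 was the lowest of its group and below the Raptor knockout. Acadm fell 2.42-fold in the double knockout (log2 fold change -1.28 ± 0.20, edgeR adjusted p = 0.000231). It was at -0.86 ± 0.21 relative to the Raptor knockout (adjusted p = 0.150), and the Raptor knockout was at -0.42 ± 0.21 relative to wildtype (adjusted p = 0.192). Without wildtype replicate 4 all of these comparisons were called, at -1.47, -0.86 and -0.61 (edgeR adjusted p = 5.48e-07, 0.00696 and 0.00304). Wildtype replicate 4 belongs to neither group of the double against Raptor knockout comparison, whose value stayed at -0.86. What changed there was the adjusted p. The fit shares its estimate of spread over all 3 genotypes, and the adjustment runs over all tested genes. Which of these moved the adjusted p was not tested. Without this library 27 of 10443 tested genes were called higher and 70 lower, against 1 and 2 of 10505 with it.

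The window before the RefSeq start of Acadm is shown as the gene of the 34 with the smallest adjusted p in the double knockout. It is GRCm38.p6 chr3:153944644-153944893, minus strand, 250 bases. Capitals mark TGACCT, the half-site AGGTCA on the other strand, a search added after seeing the data.
Acadm: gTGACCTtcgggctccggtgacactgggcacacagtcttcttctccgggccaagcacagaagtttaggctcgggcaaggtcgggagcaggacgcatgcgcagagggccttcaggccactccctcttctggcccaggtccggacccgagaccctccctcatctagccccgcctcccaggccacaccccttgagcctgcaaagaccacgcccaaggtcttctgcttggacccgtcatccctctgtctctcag
AGGTCA on either strand, as a single half-site, lay in the windows of 8 of the 28 genes (Acadm, Acadvl, Echs1, Acacb, Cd36, Plin2, Plin5 and Ucp3), 28.6% of them, against 18.1% of all genes with a window. Of these 8, Acadm and Acadvl were called in the double knockout, both lower. Among all 34 genes 11 were lower and 1 higher there, and of all tested genes 13.7% were lower and 13.0% higher. A link of the half-site to the calls was not tested.

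Acadvl, the very-long-chain dehydrogenase of the inner membrane, had 80.3, 93.7, 78.2 and 88.1 CPM in the double knockout and 103.6, 95.6 and 104.8 CPM in the Raptor knockout, against 100.8, 122.3, 86.5 and 178.1 CPM in wildtype. Wildtype replicate 4 was the highest, and the double knockout overlapped wildtype. Acadvl was at -0.52 ± 0.18 on the log2 scale (edgeR adjusted p = 0.045), and -0.27 with an adjusted p of 0.106 without wildtype replicate 4. The Acadvl call was lost under 16 of the 22 alternatives. Acads, the short-chain enzyme, had 40.1, 31.5, 30.7 and 31.1 CPM in the double knockout and 39.0, 33.8 and 37.6 CPM in the Raptor knockout, against 39.1, 44.0, 49.7 and 75.1 CPM in wildtype. Double-knockout replicate 1 overlapped wildtype replicate 1. The log2 fold change of the double knockout was -0.64 ± 0.19 (edgeR adjusted p = 0.0186), and -0.41 without wildtype replicate 4 (adjusted p = 0.0351). The Acads call was lost under 8 of the 22 alternatives. Acadl, the long-chain enzyme, had 164.3 to 168.8 CPM in the double knockout, 146.4 to 197.1 CPM in the Raptor knockout and 132.1 to 168.6 CPM in wildtype, with a log2 fold change of 0.16 ± 0.12 in the double knockout that was not called.

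Of the later enzymes, Acaa2 was the one called. Acaa2, the mitochondrial thiolase that releases acetyl-CoA, had 83.1, 71.1, 61.0 and 74.7 CPM in the double knockout and 86.9, 79.9 and 91.3 CPM in the Raptor knockout, against 88.6, 108.7, 77.8 and 162.3 CPM in wildtype. The double knockout overlapped wildtype replicate 3, and the log2 fold change of -0.59 ± 0.19 (edgeR adjusted p = 0.0316) became -0.34 with an adjusted p of 0.0691 without wildtype replicate 4. The Acaa2 call was lost under 13 of the 22 alternatives. Echs1, the short-chain enoyl-CoA hydratase, had 27.8 to 45.0 CPM in the double knockout and 35.5 to 43.7 CPM in the Raptor knockout, against 46.9 to 59.1 CPM in wildtype; neither knockout overlapped wildtype, and neither was called (adjusted p = 0.081 and 0.103). Hadh, the short-chain hydroxyacyl-CoA dehydrogenase, averaged 136.2 ± 11.9 CPM in the double knockout and 173.5 ± 24.5 CPM in the Raptor knockout, against 163.7 ± 28.9 CPM in wildtype.

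Enzymes that handle double bonds were not called. Eci1, an isomerase of unsaturated acyl-CoA, had 62.0 to 83.99 CPM in the double knockout, 89.2 to 101.2 CPM in the Raptor knockout and 76.0 to 108.7 CPM in wildtype. Its log2 fold change was -0.37 ± 0.14 relative to wildtype (adjusted p = 0.0639) and -0.43 ± 0.15 relative to the Raptor knockout (adjusted p = 0.350). Eci2, a second isomerase, had 39.2 to 43.9 CPM in the double knockout, above the 34.0 to 37.6 CPM of wildtype without overlap, at 0.20 ± 0.13 (adjusted p = 0.267). Decr1, the dienoyl-CoA reductase, averaged 46.2 ± 6.8 CPM in the double knockout and 46.4 ± 8.8 CPM in wildtype.

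Hadha and Hadhb encode the alpha and beta subunits of the mitochondrial trifunctional protein and start head to head on chromosome 5. Hadha averaged 198.0 ± 11.6 CPM in the double knockout, 188.4 ± 32.4 CPM in the Raptor knockout and 188.7 ± 46.9 CPM in wildtype. Hadhb had 92.0, 85.9, 85.9 and 71.5 CPM in the double knockout and 101.8, 110.7 and 112.4 CPM in the Raptor knockout, against 123.1, 145.5, 95.4 and 78.9 CPM in wildtype. Within a library, the ratio of Hadhb to Hadha CPM was 0.460, 0.460, 0.448 and 0.335 in the double knockout and 0.544, 0.50 and 0.717 in the Raptor knockout, against 0.696, 0.8289, 0.651 and 0.308 in wildtype. The ratio lay below all Raptor-knockout libraries and below wildtype replicates 1 to 3 in every double-knockout library, and wildtype replicate 4 was the lowest of all 11. Neither gene was called. Hadhb was at -0.40 ± 0.17 on the log2 scale relative to wildtype (adjusted p = 0.0919), and at -0.53 without wildtype replicate 4 (edgeR adjusted p = 0.00734, called).

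The bases between the first exons of the pair in GENCODE M21 are shown because both genes read out of this stretch in opposite directions. It spans GRCm38.p6 chr5:30155163-30155247, 85 bases, printed on the plus strand toward Hadhb, with nothing in capitals.
Hadhb: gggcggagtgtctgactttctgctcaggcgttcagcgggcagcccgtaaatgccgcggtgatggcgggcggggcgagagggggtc
RefSeq places the starts at 30154980 on the minus strand for Hadha and 30155253 on the plus strand for Hadhb, 272 bases apart.

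Electron transfer flavoprotein takes electrons from the acyl-CoA dehydrogenases, and its dehydrogenase passes them to ubiquinone. Etfdh (chromosome 3, 79603788 to 79629500, minus strand), the gene of that dehydrogenase, had 14.5, 25.9, 17.5 and 22.4 CPM in the double knockout, against 36.8, 46.8, 46.2 and 21.4 CPM in wildtype. The Raptor knockout had 36.9, 32.2 and 36.7 CPM. The double knockout lay below the Raptor knockout and below wildtype replicates 1 to 3, and wildtype replicate 4 lay within the range of the double knockout. The log2 fold change was -0.91 ± 0.23 relative to wildtype (edgeR adjusted p = 0.00852) and -0.81 ± 0.25 relative to the Raptor knockout (adjusted p = 0.254), while the Raptor knockout was at -0.10 ± 0.24 relative to wildtype (adjusted p = 0.827). The double-knockout call relative to wildtype was lost under 5 of the 22 alternatives.

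Etfa, the alpha subunit of the flavoprotein, had a like order of libraries without a call. It had 49.6, 62.2, 60.7 and 64.8 CPM in the double knockout and 96.4, 80.9 and 94.8 CPM in the Raptor knockout, against 89.97, 102.3, 90.96 and 51.2 CPM in wildtype. The log2 fold change was -0.49 ± 0.18 relative to wildtype (adjusted p = 0.0565) and -0.61 ± 0.19 relative to the Raptor knockout (adjusted p = 0.270). Without wildtype replicate 4 both were called, at -0.67 and -0.61 (edgeR adjusted p = 0.00057 and 0.0339). Here too the value relative to the Raptor knockout stayed at -0.61, and the adjusted p changed. Etfb, the beta subunit, averaged 123.9 ± 11.1 CPM in the double knockout and 129.8 ± 7.7 CPM in the Raptor knockout, against 135.4 ± 34.2 CPM in wildtype.

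None of the lipid droplet genes nor Ucp3 was called by edgeR in any comparison with all 11 libraries. Without wildtype replicate 3, Plin4 (log2 fold change 0.94, edgeR adjusted p = 0.018) and Ucp3 (0.95, edgeR adjusted p = 0.0303, against 0.08 with it) were called higher in the double knockout than in wildtype. Plin4, a perilipin of fibres and adipocytes, had 215.2, 385.7, 196.7 and 184.2 CPM in the double knockout and 113.3, 107.5 and 130.0 CPM in the Raptor knockout, against 101.9, 106.9, 240.1 and 168.6 CPM in wildtype. All 4 double-knockout libraries lay above the Raptor knockout, and wildtype replicate 3 lay among them. The log2 fold change was 1.07 ± 0.33 relative to the Raptor knockout (edgeR adjusted p = 0.289; DESeq2 adjusted p = 0.0406) and 0.66 ± 0.30 relative to wildtype (adjusted p = 0.125). Lipe, hormone-sensitive lipase, had 19.6, 28.0, 13.8 and 9.88 CPM in the double knockout and 10.3, 8.66 and 11.7 CPM in the Raptor knockout, against 11.1, 5.01, 17.4 and 15.8 CPM in wildtype. Ucp3, an uncoupling protein of the inner mitochondrial membrane, had 49.8 to 81.6 CPM in the double knockout, 28.7 to 42.6 CPM in the Raptor knockout and 15.0 to 134.0 CPM in wildtype.

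Levels of adipocyte markers also differed between libraries. The 10 adipocyte markers other than Plin4 and Lipe summed to 645.4, 978.0, 496.9 and 314.4 CPM in the double knockout and 482.3, 448.6 and 649.9 CPM in the Raptor knockout, against 365.2, 352.9, 706.3 and 317.4 CPM in wildtype. Double-knockout replicate 2 and wildtype replicate 3, which had the highest Plin4, had the highest sums. Other libraries did not follow this order: Raptor-knockout replicate 3 had the next highest sum with 130.0 CPM of Plin4, while double-knockout replicate 4 had the lowest sum with 184.2 CPM and wildtype replicate 4 a sum of 317.4 CPM with 168.6 CPM. None of the 11 tested markers, Plin4 and Lipe included, was called, and none of the 12 was at 0 in a whole group. All 11 had positive log2 fold changes in the double knockout relative to wildtype (median 0.74, all tested genes 0.02). Relative to the Raptor knockout 10 were positive and 1 negative (median 0.83, all tested genes 0.01). In the Raptor knockout relative to wildtype 3 were positive and 8 negative (median -0.22). The part of adipocytes in the Plin4, Lipe and Ucp3 values was not tested. The other droplet genes were Plin2, the general droplet coat protein (9.61 ± 2.24 CPM in the double knockout, 9.95 ± 1.17 CPM in the Raptor knockout and 12.7 ± 2.7 CPM in wildtype), and Plin5, which ties droplets to mitochondria (5.16 ± 1.24 CPM in the double knockout, 4.85 ± 1.19 CPM in the Raptor knockout and 5.46 ± 0.97 CPM in wildtype). Pnpla2, adipose triglyceride lipase, averaged 93.5 ± 16.1 CPM in the double knockout and 107.7 ± 21.2 CPM in the Raptor knockout, against 112.9 ± 43.6 CPM in wildtype.

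**Figure D4:**
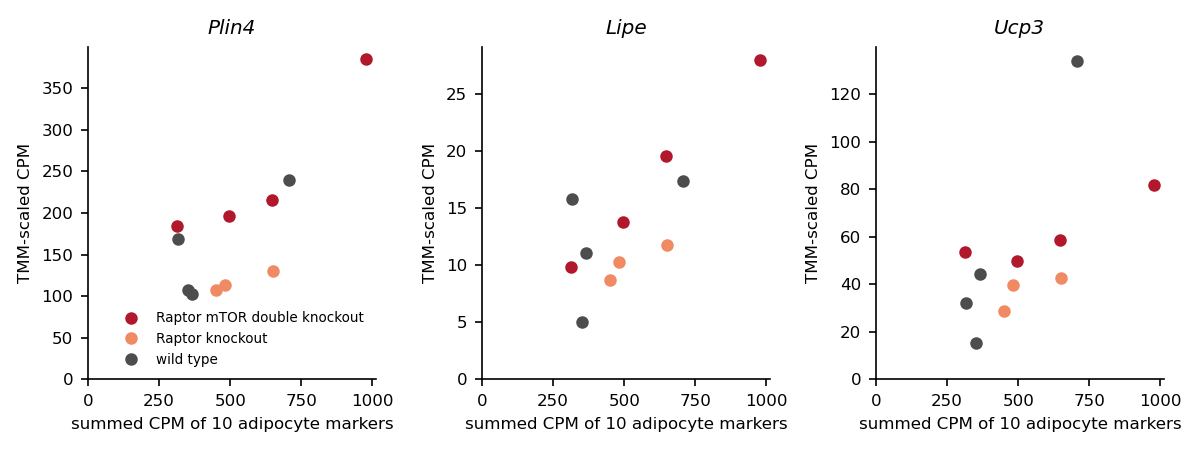
Plin4, Lipe and Ucp3 (y axes, TMM-scaled CPM) against the summed CPM of 10 adipocyte markers (x axes), 1 point per library, coloured by genotype. Double-knockout replicate 2, at a marker sum of 978.0 CPM, has the highest Plin4 and Lipe, and wildtype replicate 3, at 706.3 CPM, the highest Ucp3.

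Between the double knockout and the Raptor knockout none of the 34 genes was called by edgeR, where 0.00952% of all tested genes were called higher and 0.0190% lower. At an unadjusted p under 0.05 there were 7 of the 34 (Fabp3, Acadm, Hadh, Eci1, Etfa, Etfdh and Plin4), 20.6%, against 9.49% of all tested genes. DESeq2's Wald test called Acadm lower and Plin4 higher, both at an adjusted p of 0.0406. The double knockout lay wholly below the Raptor knockout for 12 of the 34 genes, against 7.03% of all tested genes, and wholly above it for Ucp3 and Plin4, 2 of the 34, against 5.18%. The 12 genes were Cd36, Fabp3, Acot13, Cpt1b, Slc25a20, Acadvl, Acadm, Hadhb, Hadh, Eci1, Etfa and Etfdh, with log2 fold changes from -0.90 for Fabp3 to -0.16 for Acot13. The median over the 34 genes was -0.18, against 0.01 over all tested genes, and it was -0.03 with Xist as a covariate. Across the 34 genes these log2 fold changes correlated with the GC content of the last 500 transcript bases with r = 0.48 (0.06 over all tested genes), a description in which all points share the same 7 libraries.

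**Figure D5:**
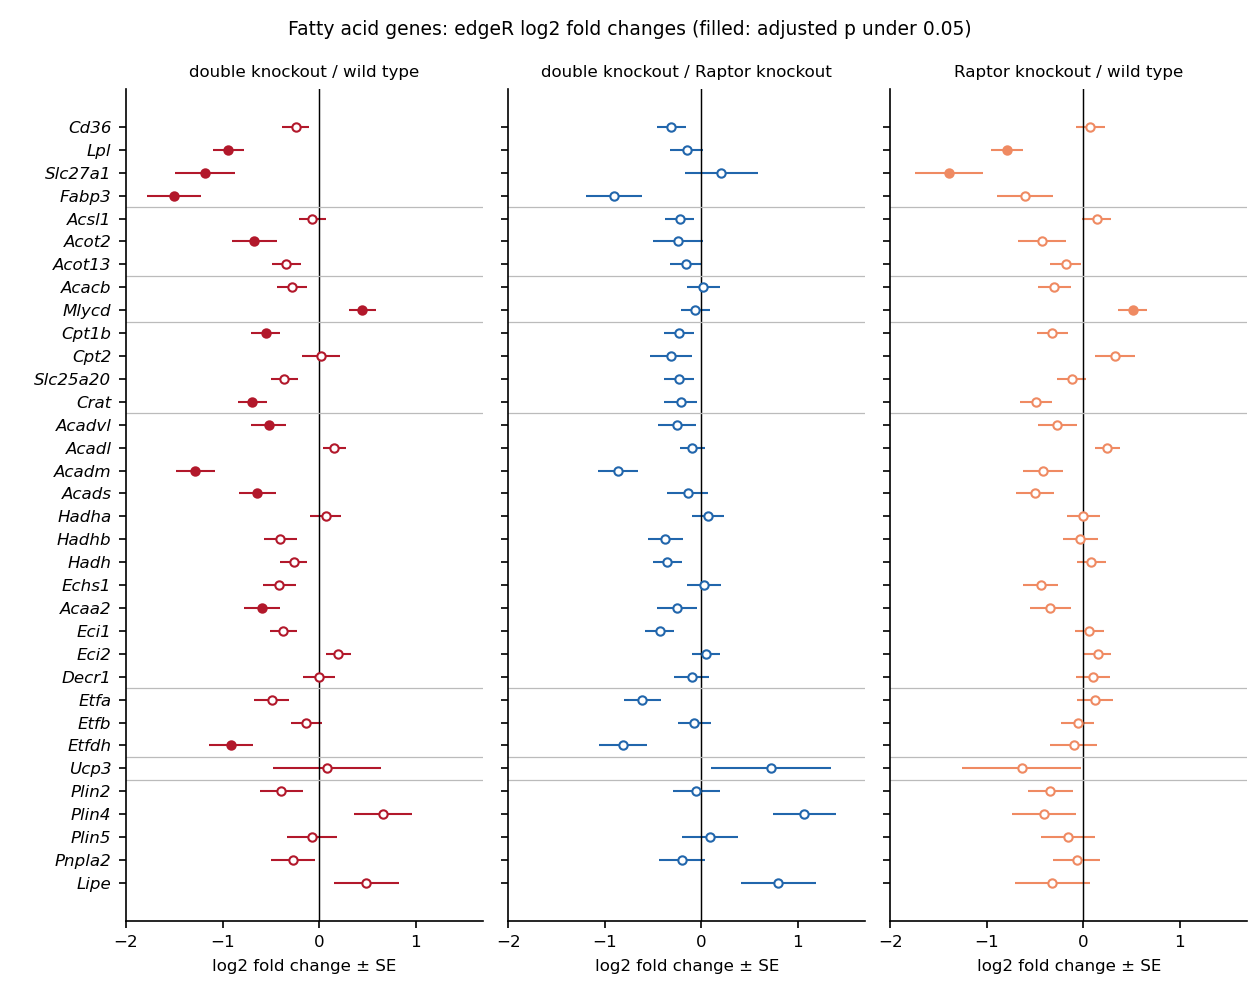
Log2 fold changes with their standard errors (x axes) of the 34 genes (rows, by step) in 3 comparisons; filled points have an edgeR adjusted p under 0.05. The left panel has 12 filled points, 11 of them below 0, the middle panel none, and the right panel 3.

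The sequencing run and Xist bear on these counts. Within the larger run, which leaves double-knockout replicates 1 and 2 against all 4 wildtype libraries, 4 genes fell (Lpl, Fabp3, Crat and Acadm) and none rose, with a median of -0.31. These 4 of 34 stand against 974 of all 10764 genes tested there. With all 11 libraries it was 11 of 34 against 1435 of 10505. The excess of falls over all tested genes was smaller within this run, which holds only 2 double-knockout libraries. The median of the 34 genes was -0.31 there, against -0.35 with all 11 libraries. Whether the run or the smaller number of libraries lowered the count was not tested. Of the libraries without Xist, which leave double-knockout replicate 4 against wildtype replicates 1, 2 and 4, 2 genes fell (Lpl and Fabp3), with a median of -0.35; the lone library is assumed to vary like the others. Without wildtype replicate 4, 13 genes fell, and without double-knockout replicate 3, 7 fell. Over all genes tested in these settings, 1689 of 10443 and 1198 of 10402 fell. Scaling by library totals, which moved the median of all genes to 0.25, gave 6 falls and 3 rises. Of all 10505 genes, 844 fell and 2421 rose with this scaling. Lpl and Fabp3 in the double knockout, and Lpl in the Raptor knockout, were called under all 22 alternatives tried. Mlycd was lost under 8 of them in each knockout, and Slc27a1 under 3 in the double and 1 in the Raptor knockout. Crat and Acadm in the double knockout were each lost under 1. The other calls, given above, were lost under 5 (Etfdh) to 16 (Acadvl).

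Other genes of the same pathways, from lists chosen with earlier results known, changed in part in both knockouts. Their counts are to be read against the shares of all tested genes, 13.7% lower and 13.0% higher in the double knockout and 9.43% lower and 8.73% higher in the Raptor knockout. Of 17 tested further mitochondrial oxidation genes 6 fell and 0 rose in the double knockout, and 5 fell and 0 rose in the Raptor knockout (35.3% lower in the double knockout and 29.4% in the Raptor knockout). Among them were Acadsb, the dehydrogenase of short branched acyl-CoA (25.4 ± 5.3 CPM in the double knockout and 26.4 ± 4.5 CPM in the Raptor knockout, against 80.7 ± 12.9 CPM in wildtype), Ivd of leucine breakdown (18.4 ± 1.5 CPM in the double knockout and 19.1 ± 1.9 CPM in the Raptor knockout, against 41.6 ± 2.6 CPM in wildtype) and Pcca, a subunit of propionyl-CoA carboxylase (9.10 ± 1.59 CPM in the double knockout and 11.6 ± 3.0 CPM in the Raptor knockout, against 26.1 ± 2.8 CPM in wildtype). These 3 act in the breakdown of amino acids, so the shares of this list are not of fatty acid oxidation alone. With Mcee and Mmut, which also fell in both knockouts, they make up all 5 falls in the Raptor knockout. Acad11, another acyl-CoA dehydrogenase, was lower at -1.65 ± 0.34 (log2) in the double knockout (edgeR adjusted p = 0.00221). Of 13 tested peroxisomal genes 5 fell in the double knockout, and 2 fell and 1 rose in the Raptor knockout (38.5% lower in the double knockout and 15.4% in the Raptor knockout). Crot, the carnitine octanoyltransferase, had 7.26 to 9.16 CPM in the double knockout and 9.49 to 11.4 CPM in the Raptor knockout, against 14.8 to 22.9 CPM in wildtype. Abcd2, a peroxisomal acyl-CoA carrier, had log2 fold changes of -0.99 in the double knockout and -0.91 in the Raptor knockout (both called), and Phyh and Scp2 fell in the double knockout by 0.61 and 0.56.

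Of 16 tested further uptake and activation genes, 3 rose and 4 fell in the double knockout, and 1 rose and 3 fell in the Raptor knockout (25.0% lower and 18.8% higher in the double knockout, 18.8% lower and 6.25% higher in the Raptor knockout). Acot7, a cytosolic thioesterase, had 4.36 to 6.005 CPM in the double knockout and 5.87 to 5.96 CPM in the Raptor knockout, against 10.2 to 24.0 CPM in wildtype. Vldlr, a lipoprotein receptor, and Acss1, the mitochondrial acetyl-CoA synthetase, fell by 0.98 and 0.94 on the log2 scale in the double knockout and by 0.90 and 0.84 in the Raptor knockout. Dbi, the acyl-CoA binding protein, rose by 0.55 in the double knockout. Of 20 tested further droplet and glyceride genes, 4 rose and 2 fell in the double knockout, and 3 rose and 0 fell in the Raptor knockout. The shares in the double knockout, 20% higher and 10% lower, lie near those of all tested genes, and 15.0% were higher in the Raptor knockout. G0s2, an inhibitor of adipose triglyceride lipase, had 127 to 396 CPM in the double knockout and 171 to 328 CPM in the Raptor knockout, against 10.4 to 39.0 CPM in wildtype. G0s2 was at 3.47 ± 0.55 on the log2 scale in the double knockout (edgeR adjusted p = 0.00158) and at 3.64 ± 0.57 in the Raptor knockout (edgeR adjusted p = 0.00238). Abhd5, the activator of the same lipase, was at -0.97 on the log2 scale in the double knockout (edgeR adjusted p = 0.00211), and Pnpla2, the lipase itself, was not called in either knockout. Cidea, a droplet protein, rose at low levels (2.73 ± 1.0 CPM in the double knockout and 2.34 ± 0.89 CPM in the Raptor knockout, against 0.487 ± 0.395 CPM in wildtype), and Fitm1, a muscle protein of droplet formation, fell in the double knockout by 0.50.

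Of 21 regulators of fatty acid genes, 8 fell in each knockout, 38.1% of them, and 1 rose in the double knockout. The lowest adjusted p-values belonged to the AMP-activated protein kinase subunits Prkag3, Prkab2 and Prkaa2 and to the retinoid receptor Rxrg. Prkag3 had 17.0 to 28.1 CPM in the double knockout and 26.3 to 39.3 CPM in the Raptor knockout, against 80.3 to 141 CPM in wildtype. Prkab2, Prkaa2 and Rxrg fell by 1.06, 1.14 and 1.20 on the log2 scale in the double knockout and by 0.99, 0.85 and 0.89 in the Raptor knockout. No gene of these lists was called between the double knockout and the Raptor knockout.

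Markers of fibre type and of mitochondria moved as follows. Of all tested genes, 13.7% fell and 13.0% rose in the double knockout, and 9.43% fell and 8.73% rose in the Raptor knockout. Of 8 slow fibre markers 7 rose in each knockout relative to wildtype, and their sum was 1538 to 2705 CPM in the double knockout, 2127 to 2452 CPM in the Raptor knockout and 713 to 1360 CPM in wildtype. Of 8 fast fibre markers 6 fell and Myh1 rose in each knockout, with sums of 62450 to 73360 CPM in the double knockout, 62680 to 68990 CPM in the Raptor knockout and 96380 to 101300 CPM in wildtype. Of 14 citrate cycle genes, which share the mitochondrial matrix with beta-oxidation, 4 (Idh3a, Suclg1, Sucla2 and Sdhb) fell in the double knockout and 0 in the Raptor knockout, with median log2 fold changes of -0.25 in the double knockout and -0.07 in the Raptor knockout. In the double knockout 28.6% of these citrate cycle genes fell, near the 32.4% of the 34 fatty acid genes. Their sum was 3456 to 3965 CPM in the double knockout, 3938 to 4253 CPM in the Raptor knockout and 3878 to 5385 CPM in wildtype. Of 10 macrophage markers 6 rose in the double knockout and 4 in the Raptor knockout, with sums of 161 to 215.9 CPM in the double knockout, 109.9 to 233.1 CPM in the Raptor knockout and 80.5 to 142 CPM in wildtype. None of the markers of these lists was at 0 in a whole group. The part of fibre type, mitochondrial content and macrophages in the fatty acid gene values was not tested.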

How the data were processed

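RNA from 11 gastrocnemius muscles was sequenced as 3' tags. The deposited gene tables hold expected counts. The submitters' processing notes name RSEM 1.3.3, STAR 2.7.0, fastp 0.20.0 and the build GRCm38 (mm10). A deposited table holds TPM per library, scaled by the authors and used only in an alternative. How strand, filters and annotation were set is not given in the sources used here; reads of overlapping antisense genes cannot be told apart. Left out were 6 columns whose names match no label.

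Rounding to whole numbers touched 2.249% of values. Every pair of libraries differed beyond sampling noise (chi-square over degrees of freedom at least 3.34), so none was treated as a repeat. The tests used edgeR 4.0.16 in R 4.3.3, with filterByExpr by group, TMM scaling, a robust quasi-likelihood fit of all 11 libraries and no covariate. This left 10505 genes with 99.54% of the counts, a biological coefficient of variation of 20.6% and 8 residual degrees of freedom. Two-sided p-values were adjusted by Benjamini-Hochberg over all tested genes within a comparison. The standard error is the size of the log2 fold change divided by the square root of F. The pipeline was tested on simulated data.

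The 34 genes, the pathway and marker lists and the alternatives were chosen with earlier results of these data known. Every one of the 34 was accounted for, with values per library for those called against wildtype. Of each pathway list up to 4 called genes with the smallest adjusted p in either comparison with wildtype were named, and Mcee and Mmut were named in addition. Etfa, Hadhb, Plin4 and Lipe were given per library after their values were seen. The alternatives used DESeq2 1.42.0 (size factors or Wald test), limma 3.58.1 on log2 TPM with a pseudocount of 1 or 0.1, library totals, no filter, the 2 groups alone, covariates for run or Xist, and libraries left out. Positions, transcripts and GC content are from GENCODE M21, and promoter windows from RefSeq (GRCm38.p6).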

Additional observations from a re-analysis of the deposited data

Results flagged for a closer look

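In 3 of the 68 groups of 4 libraries examined (34 genes in the double knockout and in wildtype), 1 library stood far from the others by Dixon's test at the 95% level, which chance alone does for about 1 group in 20. Plin4 was 385.7 CPM in double-knockout replicate 2, against 184.2 to 215.2 CPM in the other 3 double-knockout libraries; that library also had the highest sum of adipocyte markers. Acads was 40.14 CPM in double-knockout replicate 1, against 30.74 to 31.51 CPM in the other 3. Acsl1 was 159.1 CPM in wildtype replicate 2, against 120.1 to 125.6 CPM in the other 3.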

How the results depend on the processing

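No fold change of a called gene changed sign under any of the 22 alternatives. Of the double knockout against wildtype (11 falls, 1 rise, median -0.35), library totals gave 6 falls, 3 rises and a median of -0.11. Run as a covariate, or the smaller run left out, each gave 4 falls and 0 rises, Xist as a covariate 7 falls, and the libraries without Xist 2 falls and 0 rises. TPM with either pseudocount gave 5 falls, 2 rises and a median of -0.17. No filter gave 13 falls and 0 rises. Leaving out 1 library gave 7 (double-knockout replicate 3) to 13 (wildtype replicate 4) falls, 0 to 2 rises and medians from -0.42 to -0.23. Of the double against the Raptor knockout (0 calls, median -0.18), no filter gave 2 falls, the 2 groups alone 4 falls, and DESeq2's Wald test 1 fall and 1 rise. Xist as a covariate gave a median of -0.03. Leaving out 1 library gave 0 to 3 falls (3 without wildtype replicate 4), 0 rises and medians from -0.21 to -0.15. Wildtype replicate 4 belongs to neither group of that comparison and bears on it through the shared fit. Without Raptor-knockout replicate 2, 9 of 10820 tested genes were higher and 18 lower, against 1 and 2 of 10505 with it. None of the 34 was called there. Of the Raptor knockout against wildtype (2 falls, 1 rise, median -0.17), library totals gave 2 rises and a median of 0.04, and TPM medians of -0.04 (pseudocount 1) and -0.05 (pseudocount 0.1). No filter gave 4 falls and 0 rises. The libraries without Xist, and the 2 groups alone, gave 0 rises. Leaving out 1 library gave 1 (Raptor-knockout replicate 3) to 4 (wildtype replicate 3) falls, 0 to 2 rises and medians from -0.22 to -0.12. The cause of these shifts was not tested. Library totals put the median of all genes at 0.25 in the double knockout, against 0.02 with TMM. Of all genes tested between the double knockout and wildtype, 1079 of 10505 fell with run as a covariate. Without the smaller run 974 of 10764 fell, against 1435 of 10505 with all 11 libraries and no covariate.

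Xist was at 0 CPM in all Raptor-knockout libraries and high in 3 of 4 double-knockout libraries. The smaller run held double-knockout libraries only, so genotype is partly tied to Xist and to run. Genes such as Slc27a1 and Plin5, with few counts, carry large counting error. No paired analysis was possible because the labels give no replicate numbers shared between genotypes.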
